A study of Mus musculus with 8 samples.

Results

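Smoothened and the proteins that carry its signal from the membrane to the nucleus were followed as 8 transcripts: Smo, the transcription factor genes Gli1, Gli2 and Gli3, and the regulator genes Sufu, Kif7, Gpr161 and Spop. They were taken by symbol from a table of 23337 genes, in which all 8 were present, and all 8 were among the 13692 genes tested. The table came from RNA-seq of whole mouse kidneys at embryonic stage E13.5, with 4 libraries per group on a mixed C57BL/6 background. Control embryos were Smo(flox/+), with a floxed and a normal copy of Smo and no Cre named. Mutant embryos were Foxd1Cre;Smo(flox/-), with Foxd1Cre, a floxed copy of Smo and a null copy. Foxd1 is expressed in the progenitors of the renal stroma, so Cre acts there and in their descendants, while every mutant cell lacks 1 copy of Smo from the start. Each difference below therefore belongs to the whole genotype, read in a bulk organ that also holds nephron, ureteric, vascular and blood cells. The labels number the samples 1 to 4 without tying them to separate embryos or litters, so p-values speak for the spread among these libraries, which may be technical in part.

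Hedgehog ligands bind Ptch1 and so release Smo, a seven-pass membrane protein that then accumulates in the primary cilium. Without active Smo, protein kinase A and its partners mark Gli3 and Gli2 for processing, which turns Gli3 in particular into a repressor of transcription, and Sufu holds the full-length Gli proteins back. With active Smo, Gli2 and Gli3 reach the nucleus as activators and switch on targets that include Gli1 itself. In the developing kidney the ureteric epithelium secretes Shh, and the mesenchyme and stroma around it respond. Most of this control acts on proteins, and the values here are of transcripts only.

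Levels are normalised read counts, that is, reads per gene divided by a size factor per library. A fold change is the log2 difference of mutant minus control on the scale of normalised count + 1, and adjusted p-values come from limma across all tested genes with Benjamini-Hochberg adjustment, called below 0.05. Libraries held 10288191 to 13494079 reads in genes. The kidney markers Six2 (nephron progenitors), Ret (ureteric bud), Wt1 and Foxd1 were present in every library, the lowest value being 469 for Foxd1 in mutant 2. Muscle RNA was carried over mainly into the libraries numbered 2, with Myh3 levels of 1105 (control 2) and 694 (mutant 2) against at most 169 elsewhere. Liver RNA was highest in control 1, where Alb stood at 259 against at most 45.8 elsewhere. Y-linked Ddx3y marked control 4 (1518) and mutant 2 (1389.7) as male, with at most 1.7 in the others. The libraries of a group thus did not all come from the same embryo.

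The genes lie on different chromosomes of GRCm38 except for Gli2 and Gpr161, which are both on chromosome 1. By the GENCODE vM21 models, Smo spans 29735503 to 29761365 on the plus strand of chromosome 6 with 12 merged exons. Gli1 spans 127329882 to 127341974 on the minus strand of chromosome 10 with 13, Gli2 118834132 to 119053619 on the minus strand of chromosome 1 with 16, and Gli3 15463235 to 15730026 on the plus strand of chromosome 13 with 16. Sufu spans 46396896 to 46488804 on the plus strand of chromosome 19, and Kif7 79698098 to 79715720 on the minus strand of chromosome 7. Gpr161 spans 165295789 to 165326745 and Spop, on chromosome 11, 95414080 to 95493406, both on the plus strand.

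Windows of the 250 bases before a start in RefSeq were matched for 7 of the 8 genes, all but Gli1. They are shown for Smo, the targeted gene and the largest fall, and for Gli2, a close relative of Gli1 whose level did not pass the test. Capitals mark a GC box, GGGCGG or CCGCCC, the motif bound by Sp family factors. The Smo window is chr6:29735247-29735496 on the plus strand and the Gli2 window chr1:119053620-119053869 on the minus strand, both of GRCm38.p6.
Smo: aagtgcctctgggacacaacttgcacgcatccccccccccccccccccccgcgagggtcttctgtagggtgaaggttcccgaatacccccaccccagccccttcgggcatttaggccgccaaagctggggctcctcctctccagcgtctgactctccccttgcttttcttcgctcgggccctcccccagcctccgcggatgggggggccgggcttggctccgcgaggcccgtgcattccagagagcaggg
Gli2: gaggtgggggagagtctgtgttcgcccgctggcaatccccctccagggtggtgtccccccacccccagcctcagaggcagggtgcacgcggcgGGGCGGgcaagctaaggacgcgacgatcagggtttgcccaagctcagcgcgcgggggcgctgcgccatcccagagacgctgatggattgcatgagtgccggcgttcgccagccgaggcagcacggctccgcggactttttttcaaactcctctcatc
The Smo window was 68.4% G and C and held no GC box, and the Gli2 window was 67.2% G and C and held 1. Of the 8 windows of these genes, with 2 for Gpr161, 5 held a GC box, as did 32.7% of all 32851 windows in the table. The Gli consensus TGGGTGGTC, or GACCACCCA on the other strand, was in none of the 8 and in 0.225% of all windows. RefSeq starts can differ from those of the GENCODE models. The Gli3 window (15463473 to 15463722) and 1 Gpr161 window (165302373 to 165302622) lie inside the GENCODE spans given above.

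Of the 8 transcripts, Smo and Gli1 fell in the mutant kidneys and the other 6 did not pass the test. Among all tested genes 0.446% were called lower and 0.124% higher, 0.570% in all. The groups did not overlap for Smo and Gli1 and overlapped for the other 6, while 5.31% of all tested genes had groups that did not overlap. Smo had the smallest unadjusted p of all tested genes, and Gli1 the 17th smallest. The median fold change of the 8 was -0.03 on the log2 scale, beside 0.0037 over all tested genes. In the authors' deposited table, where 0.614% of 19066 genes had an adjusted p under 0.05, Smo (3.02e-214) and Gli1 (6.36e-08) were among them, and the other 6 were listed at an adjusted p of 1.

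**Figure D1:**
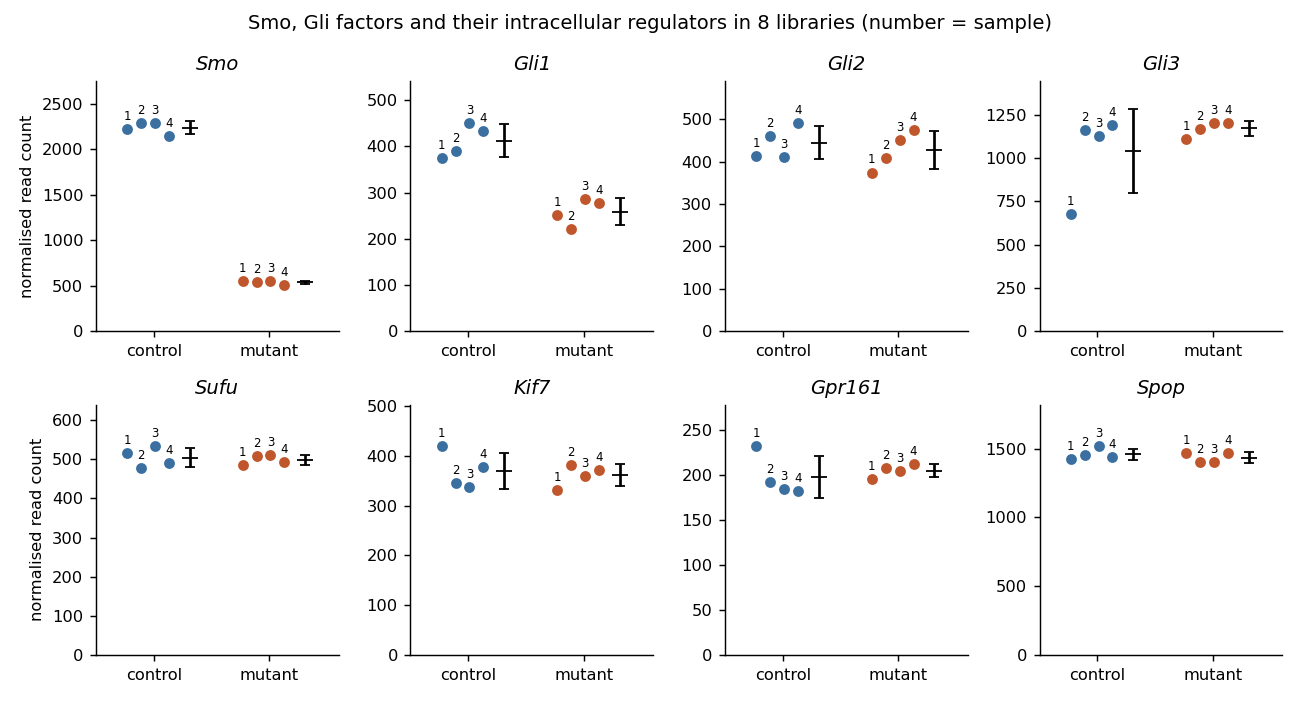
Normalised read count (vertical axis, from 0) of each of the 8 transcripts in the 4 control (blue) and 4 mutant (orange) libraries, numbered by sample; black marks give the mean and the SD. Smo and Gli1 separate the groups, and the Gli3 value of control 1 (678) lies below the 7 others (1112 to 1205).

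Smo, the gene that the mutation removes, stood at 2229, 2289.7, 2294 and 2152 in controls 1 to 4 and at 553, 538, 549.99 and 509 in mutants 1 to 4. Every mutant library was far below every control library, which matches the labels. The mutants held between 22.7% and 24.7% of the control mean, a narrow range over 4 samples. The log2 fold change was -2.06 (95% interval -2.15 to -1.97, SE 0.041, adjusted p = 1.87e-10), and Smo passed in every fit that left out 1 library. Within the mutants the coefficient of variation was 3.72%, beside 4.43% computed for counting 474 to 579 independent reads. Reads amplified by PCR are not independent molecules, so such counting errors cover counting only. The table holds 1 value per gene, so reads from unrecombined floxed, recombined and null copies of Smo were not separated.

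Gli1, the Gli gene that is itself a hedgehog target and acts as an activator only, was at 374, 391, 451 and 434 in controls 1 to 4. In mutants 1 to 4 it was at 251, 220.4, 286 and 277. The highest mutant library lay below the lowest control library, and the mutants held 53.4% to 69.2% of the control mean. Group means were 413 ± 36.2 and 259 ± 29.4 (SD, n = 4 per group), and the log2 fold change was -0.68 (95% interval -0.88 to -0.47, SE 0.092, adjusted p = 0.0102). Gli1 lost its call without control 3 (adjusted p = 0.0517) and without both libraries numbered 2 (adjusted p = 0.0686), with log2 fold changes of -0.63 in each. Exons of Arhgap9 and of the antisense gene Gm47200 on the opposite strand overlap 1.24% and 5.31% of the Gli1 exon bases. Arhgap9, a GTPase activating protein, had mean levels of 19.5 in control and 17.9 in mutant kidneys, far below those of Gli1. The deposited values carry the label 'Unstr', which may mean that counting ignored strand. No level was given for Gm47200, so its part in the Gli1 reads was not tested.

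Levels of cell type markers are given beside Gli1, since a bulk sample cannot tell fewer cells of a type from less RNA per cell. Over all 13692 tested genes, limma called 78, edgeR 79 and DESeq2 214. An unadjusted p under 0.05 was held by 1191 of the 13692, and 6588 had negative fold changes. In a list of 15 renal stroma genes, limma and edgeR called 2 and DESeq2 6, and 7 had an unadjusted p under 0.05. Fold changes were negative for 13 of the 15 (median -0.24 on the log2 scale). The 2 called by limma were Foxd1 (1477 ± 473 and 593 ± 137) and Smoc2, a secreted matrix protein (975 ± 230 and 441 ± 121), both lower. The labels do not name the Foxd1Cre allele, and Cre inserted at Foxd1 would itself cost the mutants a copy, so Foxd1 alone does not measure stromal cells. The summed level of the list was 41845 to 49392 in controls and 33778 to 40755 in mutants, without overlap, and no marker was at 0. Without Foxd1 the sums were 39805 to 48254 and 33294 to 40017, and control 4 lay below mutant 4. With 1 library left out, Foxd1 missed the threshold without control 3, mutant 1, mutant 2 or mutant 3 (adjusted p from 0.0715 to 0.109), and Smoc2 without control 1, 2 or 3, mutant 1 or mutant 3 (from 0.0871 to 0.129).

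Of 11 nephron progenitor markers limma and edgeR called 2, both higher, and DESeq2 5 (214 of all 13692 tested genes). At an unadjusted p under 0.05 there were 7 (1191 of all 13692). The median log2 fold change of the 11 was 0.27, and summed levels were 13917 to 15763 in controls and 17127 to 17661 in mutants. Of 11 ureteric bud markers limma and edgeR called 0 and DESeq2 3, with 8 at an unadjusted p under 0.05 (median 0.24, sums 8603 to 10602 and 9573 to 12042). Of 9 macrophage markers the 3 tools called 0, with 1 at an unadjusted p under 0.05, and all 9 had negative fold changes (median -0.43, sums 451 to 797 and 346 to 585). Skeletal muscle markers, with 0 of 10 tested called by limma, edgeR or DESeq2 and 0 at an unadjusted p under 0.05, summed to 127 to 3531 in controls and 127 to 1924 in mutants. The part of these markers in the fall of Gli1 was not tested, except that with a muscle score as covariate its log2 fold change was -0.72 (adjusted p = 0.0031).

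Gli2, the main activator downstream of Smo in many tissues, was at 413, 460.01, 412 and 492 in controls and at 374, 408, 450.3 and 475 in mutants. The groups overlapped over most of their range. Means were 444 ± 38.8 and 427 ± 44.6, and the log2 fold change was -0.06 (adjusted p = 0.910), with a 95% interval of -0.24 to 0.13, or 84.4% to 109% of the control level.

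Gli3, which supplies most of the Gli repressor in embryonic tissues, was at 678, 1163, 1127 and 1191 in controls 1 to 4. In mutants it was at 1112, 1171, 1203 and 1205. Control 1 alone was low, at 58.1% of the mean of the 7 other libraries, while the 3 other controls lay within the range of the mutants. With all libraries the log2 fold change was 0.21 (95% interval -0.11 to 0.53, adjusted p = 0.795). Without control 1 it was 0.02 (95% interval -0.08 to 0.11, adjusted p = 0.972), with a control mean of 1160.3 ± 32.3 (n = 3). The value of control 1 rests on 797 reads, and counting error, 3.08% on average over the controls, is small beside the gap. Control 1 also held the most liver RNA, with summed liver markers of 732 against at most 146 elsewhere, whose part in the Gli3 value was not tested. Over 11461 genes whose mean reached 50, 5 genes, Gli3 included, were as far below the other 7 libraries in control 1, with the lowest other library at least 1.64 times control 1. The 4 others, Traf1, Kcnq5, Pgbd1 and Wnt6, were chosen after their values were seen and stood at 16.2 to 67.2 in control 1, well below the level of Gli3.

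**Figure D2:**
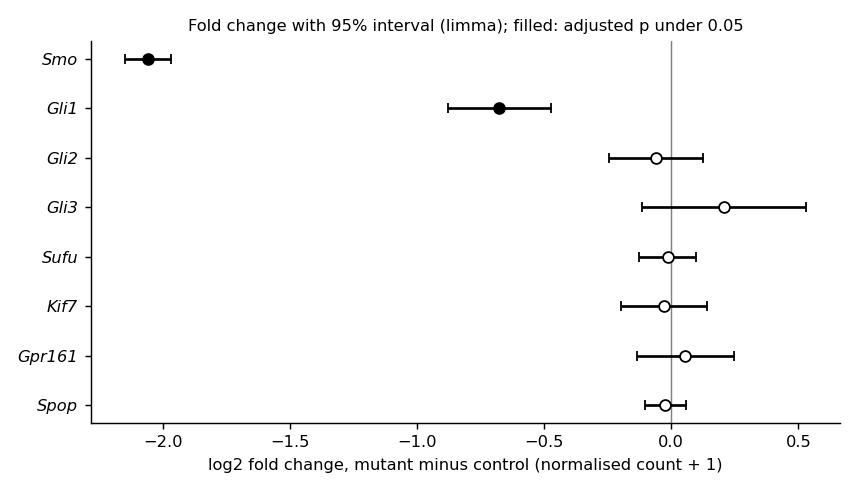
Log2 fold change, mutant minus control, of the 8 transcripts with 95% intervals from limma; filled points passed an adjusted p of 0.05. Smo (-2.06) and Gli1 (-0.68) lie apart from 0, and the interval of Gli3 is the widest of the 8 (-0.11 to 0.53).

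The fall of Gli1 was set against its relatives by taking log2 ratios within each library, which cancel the size factor. Gene length stays in each ratio and drops out only of the difference between groups, so a ratio does not rank the genes by level. The Gli1/Gli2 ratio was -0.14, -0.23, 0.13 and -0.18 in controls 1 to 4 and -0.57, -0.88, -0.65 and -0.77 in mutants. Every mutant ratio was below every control ratio. The difference was -0.62, by an exact two-sided permutation test p = 0.0286 (n = 4 per group), the smallest that 70 arrangements allow, and 0.0429 after adjustment over the 3 ratios tested. The Gli1/Gli3 ratio went from -1.30 ± 0.31 in controls to -2.18 ± 0.15 in mutants, again without overlap (difference -0.88, exact permutation p = 0.0286, n = 4 per group, adjusted 0.0429). The Gli2/Gli3 ratio was -1.19 ± 0.33 and -1.46 ± 0.10, and its groups overlapped (difference -0.27, exact permutation p = 0.114, n = 4 per group, adjusted 0.114). Control 1, with its low Gli3, had the highest value of both ratios to Gli3 (-0.86 and -0.71). Without control 1 the Gli1/Gli3 difference was -0.74, with an exact permutation p of 0.0571, the smallest that 4 against 3 libraries allow, and the Gli2/Gli3 difference was -0.11.

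**Figure D3:**
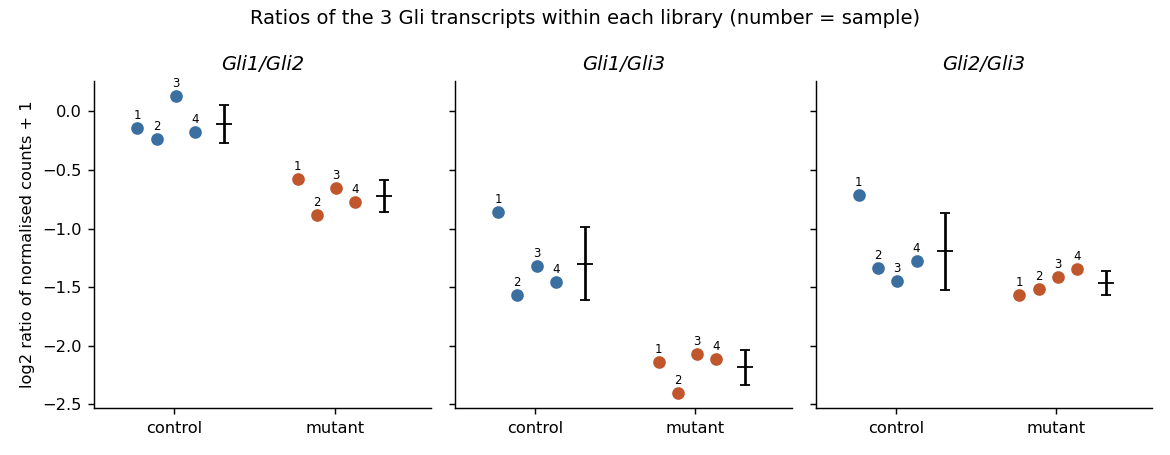
Log2 ratio of normalised counts + 1 for 3 pairs of Gli genes in each control (blue) and mutant (orange) library, numbered by sample; black marks give the mean and the SD. The Gli1/Gli2 and Gli1/Gli3 ratios of all 4 mutants lie below those of all 4 controls, and the Gli2/Gli3 ratio of control 1 (-0.71) stands above the others.

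Per kilobase of exon, the 3 Gli transcripts can be compared with each other. Of their summed level Gli1 made up 32.6% ± 3.1 in controls and 21.9% ± 1.6 in mutants (SD, n = 4 per group). Gli3 made up 41.9% ± 5.1 and 51.9% ± 1.8, and Gli2 25.5% ± 2.8 and 26.3% ± 1.2. Gli3 was the most abundant of the 3 in every library but control 1, where Gli1 held 36.4% and Gli3 34.4%. Shares of a sum move against each other, so the higher share of Gli3 is not a rise of Gli3.

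Sufu, the cytoplasmic inhibitor that binds Gli proteins, was at 516, 478, 533 and 489.8 in controls and 484, 508, 511 and 492 in mutants. The mutant values lay inside the range of the controls. The log2 fold change was -0.01 (adjusted p = 0.968), and the 95% interval, -0.13 to 0.10, spans 91.6% to 107% of the control level.

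Kif7, the ciliary kinesin that organises Gli and Sufu at the cilium tip, was at 419, 346, 338 and 377 in controls and 332, 382, 361 and 372 in mutants. The groups overlapped, with control 1 highest and mutant 1 lowest. The log2 fold change was -0.03 (95% interval -0.20 to 0.14, adjusted p = 0.954). The antisense gene 9330171B17Rik overlaps 19.1% of the Kif7 exon bases. Reads of the 2 cannot be told apart if counting ignored strand, which the label 'Unstr' may mean.

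Gpr161, the ciliary receptor that raises cyclic AMP and so keeps protein kinase A active on the Gli proteins, was at 231, 192, 184 and 182 in controls and 195, 208, 204 and 212 in mutants. Control 1 held the highest value. The log2 fold change was 0.06 (95% interval -0.14 to 0.25, adjusted p = 0.920), and 0.13 without control 1 (adjusted p = 0.757).

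Spop, the substrate adaptor of a cullin 3 ubiquitin ligase that sends Gli2 and Gli3 for degradation, was at 1421, 1454, 1516 and 1439 in controls and 1469.6, 1401, 1401 and 1465 in mutants. It had the narrowest interval of the 8, with a log2 fold change of -0.02 (95% interval -0.10 to 0.06, adjusted p = 0.919), or 93.1% to 104% of the control level. For Sufu, Kif7, Gpr161 and Spop, within-group coefficients of variation ran from 2.56% to 11.6%, beside counting errors of 2.55% to 7.18%. The lowest was that of Sufu in the mutants (2.56% against 4.59%) and the highest that of Gpr161 in the controls (11.6% against 6.98%).

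Levels per kilobase of merged exon put the 8 transcripts in order. In controls Spop was highest (462 ± 13.0 normalised counts per kilobase), followed by Smo (399 ± 11.8), and their ranges did not overlap. Gli3 (108 ± 25.3), Gli1 (82.6 ± 7.2) and Kif7 (80.8 ± 8.0) came next, and neighbours among these 3 overlapped in range. Sufu (65.6 ± 3.3) and Gli2 (64.7 ± 5.6) overlapped each other, and Gpr161 was lowest (28.4 ± 3.3). In mutants the order was Spop (454 ± 12.1), Gli3 (122 ± 4.5), Smo (95.6 ± 3.6), Kif7 (79.0 ± 4.7), Sufu (64.8 ± 1.7), Gli2 (62.1 ± 6.5), Gli1 (51.8 ± 5.9) and Gpr161 (29.4 ± 1.0). Smo thus went from the level next to Spop to between Gli3 and Kif7, and Gli1 from above to below the mean levels of Kif7, Sufu and Gli2. In mutants, Sufu overlapped Gli2 and Gli2 overlapped Gli1, and the other neighbours did not overlap. The lengths are of GENCODE vM21 models, which may not be those that the authors counted on.

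Against 11460 other tested genes whose mean reached 50, the profile most like that of Gli1 over the 8 libraries was that of Fbxl7, which encodes an F-box protein. Likeness was the root mean square difference of log2 values centred on each gene's own mean, 0.057 for Fbxl7. Fbxl7 was at 434 to 532 in controls and 287 to 338 in mutants (log2 fold change -0.62, adjusted p = 0.0092). Rab32, a small GTPase, followed (difference 0.0996, log2 fold change -0.72, adjusted p = 0.0103). The genes nearest to Smo were farther away. They were Cdh8, a cadherin, at 0.339, Slitrk6, a transmembrane protein, at 0.425 and Rxfp2, a relaxin family receptor, at 0.4396, with log2 fold changes of -1.82, -1.52 and -1.87 (adjusted p = 0.0062, 0.0235 and 0.0102). These genes were chosen for their values in the same 8 libraries, so their falls and calls are a description and no separate support. Fbxl7 and Cdh8 passed in all 8 fits that left out 1 library. Rab32 missed the threshold without control 3 (adjusted p = 0.0528), Rxfp2 without control 3 or mutant 3 (0.0522 and 0.0519), and Slitrk6 without control 1, 2 or 3 or mutant 3 (adjusted p up to 0.0966). None of these 5 genes passed without both libraries numbered 2, with adjusted p from 0.0614 to 0.124.

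Upstream of Smo, 18 genes of ligands, ligand release, receptors and co-receptors were listed and 16 were tested. By limma and edgeR 0 of the 16 passed. An unadjusted p under 0.05 was held by 5 of the 16, beside 1191 of all 13692 tested genes. DESeq2 called 3 of the 16, beside 214 of all 13692, and Ptch1 and Gpc3 were among the 3. All 3 had negative fold changes. The median log2 fold change of the 16 was -0.12. Ptch1, the receptor that holds Smo inactive, was at 852, 849, 591 and 574 in controls and 538, 483, 526 and 478 in mutants. The groups did not overlap, but controls 3 and 4 lay close to the mutants (log2 fold change -0.48, adjusted p = 0.164, and 0.0348 without control 4). For Gpc3, a glypican that binds ligand, the log2 fold change stood at -0.15 (adjusted p = 0.198). For Scube1, of a family of secreted proteins of which some help release ligand, it stood at -0.67 (adjusted p = 0.221).

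Between Smo and the Gli proteins, 41 genes of kinases, ubiquitin ligases, arrestins and ciliary proteins were listed, and all were tested. Of the 41, 0 passed by limma, edgeR or DESeq2 and 1 had an unadjusted p under 0.05, beside 1191 of all 13692 tested genes. Log2 fold changes of the 41 ran from -0.23 to 0.10 with a median of 0.01. The lowest was that of Arrb1, a beta-arrestin that binds active Smo, at 675 ± 64.9 and 574 ± 40.2 (adjusted p = 0.293). Next by p were Skp1a, a subunit of the ligase that starts Gli processing (0.06, adjusted p = 0.631), Gsk3a, a kinase of Gli proteins (0.08, adjusted p = 0.659), and Gnas, the stimulatory G protein subunit (-0.08, adjusted p = 0.701).

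Downstream, a list of 25 genes reported as hedgehog targets in various tissues, without Gli1, had 18 tested members. By limma 3 of these were lower, 0 higher and 15 not called, and edgeR called the same 3. At an unadjusted p under 0.05 there were 8, beside 1191 of all 13692 tested genes. DESeq2 called 6 of the 18, beside 214 of all 13692. Of the 6, Bcl2 was higher (log2 fold change 0.25, DESeq2 adjusted p = 0.0451, limma adjusted p = 0.168). The median log2 fold change of the 18 was -0.08. Tgfb2, a transforming growth factor ligand, had means of 731 ± 52.9 and 474 ± 89.2 and a log2 fold change of -0.64 (adjusted p = 0.0325), beside -0.68 for Gli1. Log2 fold changes were -1.62 for Igfbp6, whose product binds insulin-like growth factors (adjusted p = 0.0437), and -0.23 for Ccnd2, cyclin D2 (adjusted p = 0.0309). Igfbp6 had means of 87.4 ± 33.3 and 25.8 ± 4.5. It missed the threshold with no filter on low values (limma adjusted p = 0.0520) and with upper quartile scaling (0.0502). With 1 library left out the log2 fold changes kept their sign, from -0.25 to -0.21 for Ccnd2, -0.76 to -0.54 for Tgfb2 and -1.99 to -1.49 for Igfbp6, while the calls were often lost. Ccnd2 kept its call in 3 of the 8 fits that left out 1 library (without control 1, control 4 or mutant 4), Tgfb2 in 2 (without control 4 or mutant 4) and Igfbp6 in 1 (without control 4), with adjusted p up to 0.133, 0.120 and 0.165. The 3 target genes and the members were chosen with earlier results of these data known, so their counts are a description.

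**Figure D4:**
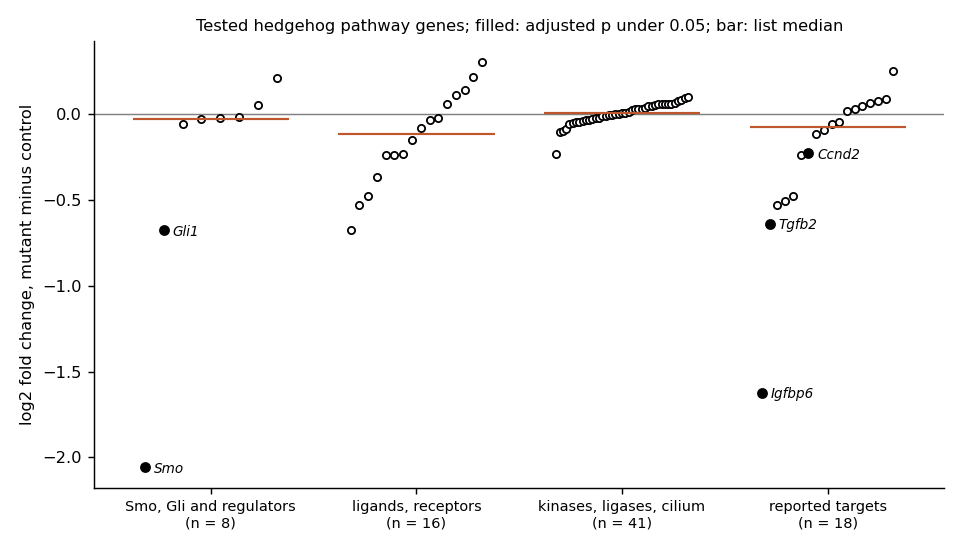
Log2 fold change, mutant minus control, of every tested gene of 4 hedgehog lists, each point a gene in order of its value; filled points passed an adjusted p of 0.05 and bars are list medians. The 41 kinases, ligases and ciliary genes lie between -0.23 and 0.10, and the 5 filled genes are Smo, Gli1, Igfbp6, Tgfb2 and Ccnd2.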

How the data were processed

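Poly(A)-selected RNA, 500 ng per library, was sequenced from 4 control and 4 mutant kidney samples at E13.5, per the labels' protocols. TopHat2 2.0.12, HTSeq and DESeq2 1.4.5 with mm10 (GRCm38) are named in the submitters' processing notes, without an annotation, which is therefore not stated here. The authors deposited per-library signal values, which are gene counts divided by 1 size factor. All values (100%) were whole multiples of a library's smallest value within 0.01 read, so reads could be recovered. The authors' deposited table also holds fold changes as a ratio and as log2, and p-values raw and adjusted.

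Values were log2-transformed with a pseudocount of 1, and genes whose mean reached 10 were tested with limma 3.58.1 (intensity trend, two-sided, R 4.3.3). edgeR 4.0.16 and DESeq2 1.42.0 on recovered reads were alternatives. No library repeated another of its group: chi-square over degrees of freedom was 2.89 to 10.98 for each pair. Gene models came from GENCODE vM21 and windows from RefSeq. Ratios were tested with scipy 1.17.1, and figures drawn with matplotlib 3.10.9. The limma step was tested on simulated data. Genes named were the 8 members, called genes and up to 4 smallest p per pathway list, and the 3 genes most like Smo and Gli1, of which 1 gene is not reported here. The members and lists were chosen with earlier results of these data known. Of the 25 listed targets, Foxf1 had no row by that symbol.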

Additional observations from a re-analysis of the deposited data

Results flagged for a closer look

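Of 62 groups of 4 values, 2 held a library far from the other 3, where chance gives about 3.1. Gli3 was 678 in control 1, against 1127 to 1191 in the other controls. Igfbp6 was 37.6 in control 4, against 101 to 108 in the other controls.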

How the results depend on the processing

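Smo and Gli1 were called and the other 6 members were not, under changes of pseudocount, filter, scaling and test and with the muscle covariate. The number of genes called, 78, became 214 with DESeq2, 232 with the sample number as a replicate block, 2 without the libraries numbered 2 and 29 without controls 1 and 2 (chosen after seeing the data), and ran from 18 (without control 3) to 185 (without control 4) with 1 library left out. The cause of these shifts was not tested. Samples of the same number shared deviations with r from 0.064 to 0.32, and 6 of 8 correlated best with their own number. The pair numbered 4 was at 0.064, under the 0.1 asked of every pair, so the number is a hint of pairing from the data and not taken as a design. The block changed no member's call. Members called were 1 without the libraries numbered 2 and ran from 1 to 2 with 1 library left out. Gli1 was at -0.63 without the libraries numbered 2, and from -0.73 to -0.60 with 1 left out. Fold changes that crossed 0 with 1 library left out were those of Gli2 (-0.11 to 0.0015), Sufu (-0.040 to 0.012) and Kif7 (-0.072 to 0.031). Kif7 was at 0.017 without controls 1 and 2. The Gli1/Gli2 and Gli1/Gli3 differences were -0.60 and -0.90 without the libraries numbered 2 (p = 0.100 each by exact permutation), -0.70 and -0.80 without controls 1 and 2 (p = 0.133 each by exact permutation), and from -0.67 to -0.54 and -0.97 to -0.74 with 1 library left out (p = 0.0571 each by exact permutation). Those are the smallest p that fewer libraries allow. With the block, Ptch1 and Scube1 also passed (adjusted p = 0.0372 and 0.0011). Depth limits Gpr161 most, at 182 to 272 reads.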
